A study of Mus musculus with 6 samples.

Results

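The genes described here are 42 mouse genes of the G2 phase and of mitosis, named individually as a set, from Cdk1 and its cyclins through the kinetochore and the kinesin motors to cytokinesis. Of the 42, 41 had a probe set annotated to them alone, out of 18193 genes measured. Ccnb1, which encodes cyclin B1, had none and was not analysed here. The cells were 344SQ, a mass population of lung adenocarcinoma cells grown from a subcutaneous tumour site of 1 mouse with a p53R172H∆g/+ K-rasLA1/+ genotype. Stable pools of these cells carried a lentivirus either with the miR-200b-200a-429 cluster (miR-200) or without it (control vector), were positive for GFP and were kept under puromycin in RPMI medium with fetal bovine serum. Each kind of cell gave 3 arrays, called here miR-200 A, B and C and control A, B and C after the letters in the labels. Both kinds share the tumour alleles, the viral backbone and the selection. Each kind is a pool, and the labels do not say that its cultures came from separate transductions, so a p-value refers to the variation among these particular cultures.

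During G2 a cell builds up the proteins that will divide it. Cdk1 bound to cyclin A or cyclin B drives entry into mitosis, the kinases Plk1, Aurka and Aurkb assemble and correct the spindle, and the spindle checkpoint holds the anaphase-promoting complex (APC/C) back until every kinetochore is attached. The APC/C, a ubiquitin ligase switched on by Cdc20, then marks cyclins and securin for destruction. Most of these genes are transcribed in a late wave: complexes built on MuvB proteins hold them silent in resting cells and, with B-Myb and FoxM1, switch them on in G2. In a growing culture the RNA of the set therefore tracks how many cells are in or near division. In bulk RNA, fewer dividing cells and less RNA per dividing cell cannot be told apart.

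The promoter sequences of the set are shown first, since many of them hold the same 2 motifs. MuvB complexes bind the cell cycle genes homology region (CHR), searched here as its core TTTGAA or TTTAAA on both strands, and the factor NF-Y binds CCAAT, also searched on both strands. TTTAAA is its own reverse complement and was counted once. The lines give the 100 bases before the RefSeq start of 9 members, from assembly GRCm38.p6, 5′ to 3′ on the gene's strand. Capitals mark a match to either motif. On the opposite strand TTTGAA reads as TTCAAA and CCAAT as ATTGG. The first 7 genes come from 6 of the 8 roles the set was ordered by, Bub3 is the member whose signal varied least between arrays, and Birc5 is one in which neither motif was found in these 100 bases.
Cdk1, chr10:69352913-69353012, minus strand: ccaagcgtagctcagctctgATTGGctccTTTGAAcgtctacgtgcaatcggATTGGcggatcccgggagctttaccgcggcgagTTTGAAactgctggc
Plk1, chr7:122159335-122159434, plus strand: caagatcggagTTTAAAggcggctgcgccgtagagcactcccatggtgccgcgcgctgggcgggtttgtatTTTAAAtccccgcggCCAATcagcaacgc
Cdc20, chr4:118437344-118437443, minus strand: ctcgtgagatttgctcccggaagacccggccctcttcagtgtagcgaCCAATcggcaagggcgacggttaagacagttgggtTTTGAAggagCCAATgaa
Ube2c, chr2:164769829-164769928, plus strand: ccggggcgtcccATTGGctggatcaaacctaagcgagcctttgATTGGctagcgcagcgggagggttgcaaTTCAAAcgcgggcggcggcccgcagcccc
Kif11, chr19:37376282-37376381, plus strand: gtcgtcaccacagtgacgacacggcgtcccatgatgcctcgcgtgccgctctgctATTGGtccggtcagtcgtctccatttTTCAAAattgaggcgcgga
Cenpa, chr5:30666786-30666885, plus strand: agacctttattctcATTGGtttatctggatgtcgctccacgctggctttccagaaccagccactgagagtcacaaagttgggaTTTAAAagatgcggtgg
Top2a, chr11:99024190-99024289, minus strand: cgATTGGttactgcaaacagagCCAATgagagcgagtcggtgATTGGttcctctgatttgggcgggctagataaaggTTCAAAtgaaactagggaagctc
Bub3, chr7:131560270-131560369, plus strand: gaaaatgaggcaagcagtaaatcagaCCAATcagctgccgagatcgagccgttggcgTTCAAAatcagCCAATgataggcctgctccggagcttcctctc
Birc5, chr11:117849137-117849236, plus strand: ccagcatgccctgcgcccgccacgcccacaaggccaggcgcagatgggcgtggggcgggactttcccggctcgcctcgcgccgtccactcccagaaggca

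In Cdk1, Cdc20, Ube2c, Kif11, Cenpa and Top2a a CHR core lies close to the start with a CCAAT match upstream of it. Windows of 250 bases before and 50 after the start were at hand for 37 of the 42 members, 40 windows in all. A CHR core occurred in 32 of the 40 windows (80.0%), against 27.6% of the 32851 RefSeq windows in the mouse table. CCAAT also occurred in 80.0% of members' windows, against 37.4% of all windows. At least 2 CCAAT positions were found in 55.0% of members' windows, against 11.7% of all windows, and both motifs together in 70.0%, against 10.7%. Within the last 100 bases before the start, both motifs stood in 12 of 40 members' windows (30.0%) and in 1.77% of all windows. In these 100 bases a CHR core stood in 14 of 40 (35.0%), against 9.71% of all windows, and CCAAT in 28 of 40 (70.0%), against 18.9%. The lines printed above are thus richer in matches than the set, as all but that of Birc5 hold both motifs. A match is a description of the letters and not a bound site, and the members are a chosen set, so these shares carry no test.

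**Figure D1:**
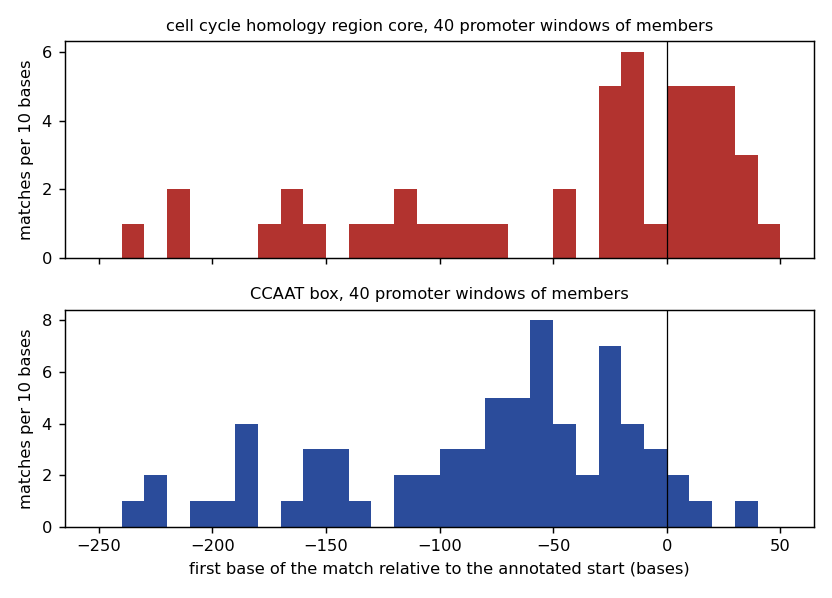
Positions of CHR core matches (TTTGAA or TTTAAA) and of CCAAT matches, both strands, in 40 promoter windows of the mitotic genes, counted in bins of 10 bases; the horizontal axis is the distance from the RefSeq start in bases. The 69 CCAAT matches have their median 65 bases before the start and the 48 CHR cores theirs 17.5 bases before it.

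The microRNAs carried by the virus are shown with their seed, bases 2 to 8, in capitals. The mature sequences are those of RefSeq, assembly GRCm38.p6, where the 3 genes lie together on the minus strand of chromosome 4. The mature forms lie at chr4:156055685-156055706 (miR-200b), chr4:156054911-156054932 (miR-200a) and chr4:156053916-156053937 (miR-429).
mmu-miR-200b-3p: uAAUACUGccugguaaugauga
mmu-miR-200a-3p: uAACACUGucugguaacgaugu
mmu-miR-429-3p: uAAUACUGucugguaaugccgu
miR-200b and miR-429 share the seed AAUACUG, and miR-200a has AACACUG.

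All values below are log2 signals after quantile normalization, 1 per array, read from the brightest of a gene's own probe sets. The arrays carry no counts, so their number, 3 per group, limits the precision. As a gauge of background the highest value of the bacterial trp control probe sets, 5.28, was used. Krt8, Krt18 and Cdh1, markers of epithelium, lay above 13 on every array, whereas Nkx2-1, which marks lung epithelium, read 6.55 to 7.36 and Sftpc, a surfactant gene of alveolar type II cells, lay under the gauge at 3.95 to 4.85.

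The dominant pattern in the mitotic genes was between arrays of the same group. Nearly all of them on the arrays miR-200 A and control B were several-fold lower than on the other 4 arrays, and on those 4 arrays they lay close together. The median level over the 41 genes was 7.74, 10.85 and 11.02 on miR-200 A, B and C, against 10.77, 7.91 and 10.65 on control A, B and C. Set against the mean of the other 2 arrays of its own group, miR-200 A was at least 2-fold lower in 40 of the 41 genes, where 6.37% of all genes were. Control B was at least 2-fold lower in 40 of 41 as well, where 6.58% of all genes were. Bub3 was the exception on both. In all 41 genes these 2 arrays were the 2 lowest of the 6, an order that 15.2% of all genes showed. The distance from the lowest of the other 4 arrays down to the higher of these 2 ran from 0.15 (Bub3) to 4.63 (Birc5), with a median of 2.49.

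**Figure D2:**
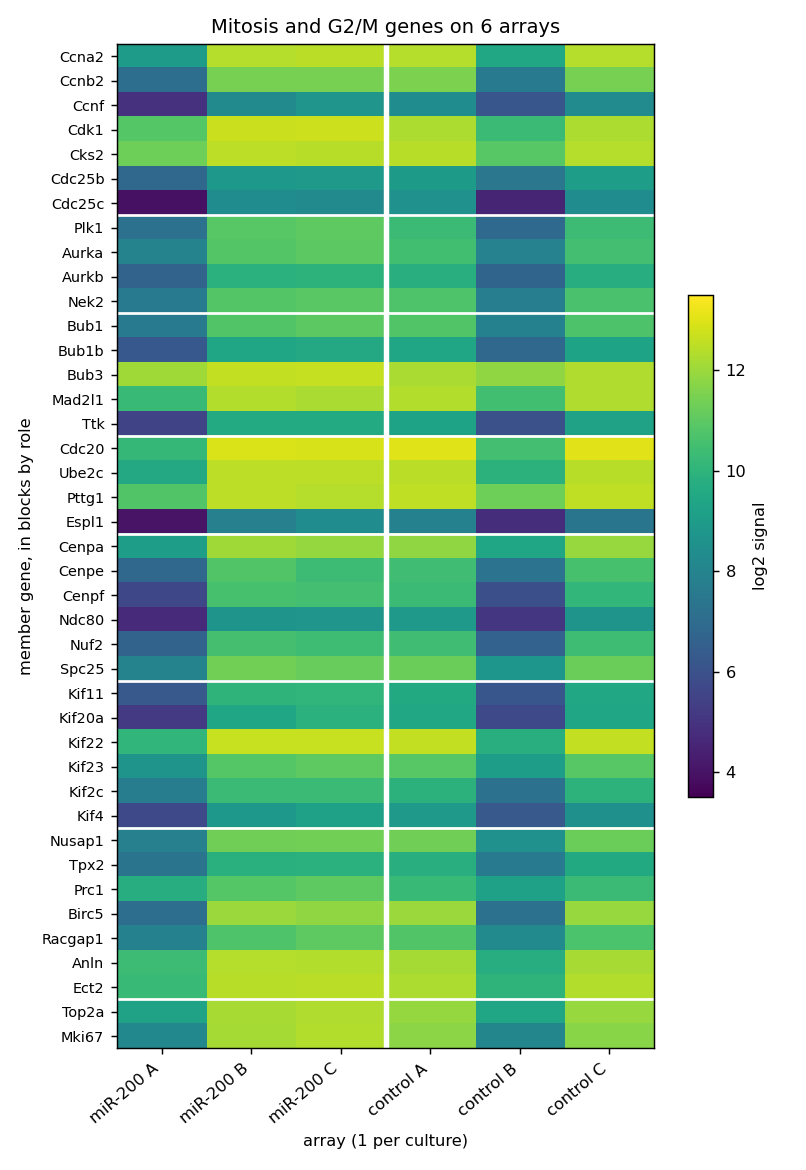
Log2 signal (colour) of 41 mitotic and G2/M genes, 1 per row and grouped by role, on miR-200 A, B and C (left) and control A, B and C (right). The columns of miR-200 A and control B are lower than the other 4 in every row, with member medians of 7.74 and 7.91 against 10.65 to 11.02.

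Cdk1, the kinase that drives entry into mitosis, had 10.87, 12.70 and 12.73 on miR-200 A, B and C, against 12.27, 10.33 and 12.27 on control A, B and C. It was thus 3.58-fold lower on miR-200 A and 3.85-fold lower on control B than on the other arrays of the same group. Ccna2, cyclin A2, read 8.9996, 12.39 and 12.47 in miR-200 cells, against 12.38, 9.51 and 12.41 in control cells. Its shortfall was larger, 10.8-fold on miR-200 A and 7.39-fold on control B. Ccnb2, cyclin B2, had 7.12, 11.43 and 11.45 on the miR-200 arrays, against 11.54, 7.66 and 11.45 on the control arrays, 20.0-fold and 14.3-fold. The phosphatase Cdc25c, which removes the inhibitory phosphates from Cdk1, read 3.95, 8.36 and 8.25 in miR-200 cells, against 8.54, 4.52 and 8.37 in control cells. Both low readings lie under the background gauge, so that the difference within the group is at least 8.13-fold on miR-200 A and at least 9.05-fold on control B. Cks2, the small subunit that binds the Cdk, and Cdc25b, a phosphatase that acts earlier in G2, deviated less, by 2.23-fold and 4.07-fold on miR-200 A and by 2.81-fold and 2.92-fold on control B. Ccnf, cyclin F, was also lower on both arrays.

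The mitotic kinases showed the same order of arrays. Plk1, which acts at centrosomes, kinetochores and the midzone, had 7.25, 10.90 and 11.03 in miR-200 cells, against 10.31, 6.91 and 10.34 in control cells. It was 13.2-fold lower on miR-200 A and 10.7-fold lower on control B than on the other arrays of its group. Aurora A (Aurka), the spindle pole kinase, read 7.96, 10.83 and 10.96 on the miR-200 arrays, against 10.47, 7.91 and 10.50 on the control arrays. Aurora B (Aurkb), the kinase of the chromosomal passenger complex, had 6.68, 9.90 and 9.97, against 9.77, 6.73 and 9.73 on the control arrays. Nek2, which separates the centrosomes, lay 9.62-fold lower on miR-200 A and 7.37-fold lower on control B.

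Among checkpoint genes the deviation differed widely. Ttk, the kinase also called Mps1 that starts checkpoint signalling, read 5.55, 9.60 and 9.62 in miR-200 cells, against 9.30, 5.96 and 9.28 in control cells, 16.7-fold and 10.0-fold lower on the low arrays. Bub1b, which encodes BubR1, read 6.27, 9.41 and 9.55 on the miR-200 arrays, against 9.38, 6.85 and 9.32 on the control arrays. Bub1 and Mad2l1, the gene of the checkpoint protein Mad2, also lay at least 2-fold lower on both. Bub3 had 12.07, 12.60 and 12.60 in miR-200 cells, against 12.22, 11.85 and 12.30 in control cells. Its deviation, 1.45-fold on miR-200 A and 1.33-fold on control B, was the smallest of the set on both arrays. The Bub3 window printed above holds a CHR core and 2 CCAAT matches in its last 100 bases. Another RefSeq start of Bub3, with its 100 bases at chr7:131560394-131560493, has neither motif there. Whether the motifs bear on the deviation was not tested.

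The activators of the APC/C and the genes of sister separation followed. Cdc20, the mitotic activator, had 10.17, 12.92 and 12.91 on the miR-200 arrays, against 13.02, 10.49 and 13.07 on the control arrays. Ube2c, the ubiquitin-conjugating enzyme that works with the APC/C, read 9.54, 12.50 and 12.49 in miR-200 cells, against 12.48, 9.92 and 12.42 in control cells. Pttg1 (securin) was 3.18-fold lower on miR-200 A and 2.36-fold lower on control B. Espl1 (separase) was at least 7.11-fold and at least 5.11-fold lower, since it lay under the gauge on both low arrays. The APC/C itself deviated less: its 14 core and adaptor genes had a median deviation of -0.43 on miR-200 A and -0.39 on control B. All of them lay below 0 on both arrays, from -1.24 to -0.041 on miR-200 A and from -0.95 to -0.019 on control B. The medians over all genes were 0.012 and 0.00055.

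Kinetochore genes had the largest median deviation of the roles on control B, -3.43, and the largest on miR-200 A, -3.74. Cenpf, a large protein of the outer kinetochore, read 5.66, 10.58 and 10.51 in miR-200 cells, against 10.32, 5.93 and 10.13 in control cells. At 29.6-fold this was the largest difference of any member on miR-200 A, and it was 19.6-fold on control B. Cenpa, the histone H3 variant that marks centromeres, had 9.10, 12.07 and 11.91, against 11.82, 9.43 and 11.94 on the control arrays. Ndc80 and Nuf2, partners in the complex that holds microtubules, were at least 10.7-fold and 13.7-fold lower on miR-200 A and at least 11.3-fold and 13.6-fold lower on control B. The motor Cenpe and Spc25, another subunit of the Ndc80 complex, lay lower on both arrays too.

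The kinesins and the cytokinesis genes had smaller medians. The kinesins lay at -2.94 on miR-200 A and -2.73 on control B, and the spindle assembly and cytokinesis genes at -2.52 and -2.43. Kif11 (Eg5), the motor that pushes spindle poles apart, read 6.28, 10.00 and 10.09 on the miR-200 arrays, against 9.58, 6.16 and 9.50 on the control arrays. Kif20a, needed for cytokinesis, was at least 20.5-fold lower on miR-200 A and 13.0-fold lower on control B. Kif22, Kif23, Kif2c and Kif4 were 4.73-fold to 9.88-fold lower on miR-200 A. Birc5 (survivin) had 7.10, 11.98 and 11.84 in miR-200 cells, against 11.997, 7.21 and 11.96 in control cells, 28.0-fold and 27.2-fold lower on the low arrays, the second the largest of the set on control B. Prc1, which bundles midzone microtubules, was the least affected of this group, with 9.73, 10.87 and 11.01 in miR-200 cells, against 10.24, 9.21 and 10.31 in control cells. Nusap1, Tpx2, Racgap1, Anln and Ect2 lay between these, 4.09-fold to 11.4-fold lower on miR-200 A.

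Top2a, the topoisomerase that untangles sister chromatids, had 9.26, 12.21 and 12.31 on the miR-200 arrays, against 11.92, 9.43 and 11.94 on the control arrays. Mki67, the gene of the proliferation marker Ki-67, read 8.17, 12.15 and 12.34 in miR-200 cells, against 11.77, 8.08 and 11.72 in control cells. It was 16.8-fold lower on miR-200 A and 12.7-fold lower on control B.

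The genes with large deviations were largely the same on the 2 low arrays. Across the 41 genes the deviations of miR-200 A and of control B correlated with r = 0.93 and rho = 0.89, against 0.44 and 0.42 across all genes. These are correlations across genes of 2 arrays, and genes are not independent replicates. The deviation was larger on miR-200 A in 35 genes and larger on control B in the other 6, which were Cdk1, Cks2, Kif22, Kif2c, Anln and Ect2. For Kif22 this held for its brightest probe set only. Its others read -3.96 and -4.36 on miR-200 A, against -3.92 and -3.76 on control B. With readings under the gauge set at it, the deviation of the members was larger on miR-200 A in 33, since Cdc25c and Ndc80 changed sides. The median was 9.45-fold on miR-200 A and 5.93-fold on control B, or 8.13-fold and 5.85-fold with readings under the gauge, 5 on miR-200 A and 3 on control B, set at it. More than 8-fold differences were found in 23 members on miR-200 A, 22 of them with the gauge applied, and in 13 on control B either way. Within windows that hold a CHR core the median deviation was -3.11 on miR-200 A and -2.54 on control B (28 genes). Without one it was -2.64 and -2.30 (8 genes). For CCAAT at 2 or more positions the order was the reverse on both arrays. On control B the median was -2.53 with it (19 genes) and -2.69 without it (17 genes). On miR-200 A the genes without it had a median of -3.21, a larger shortfall than those with it. These contrasts are descriptions with no test.

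**Figure D3:**
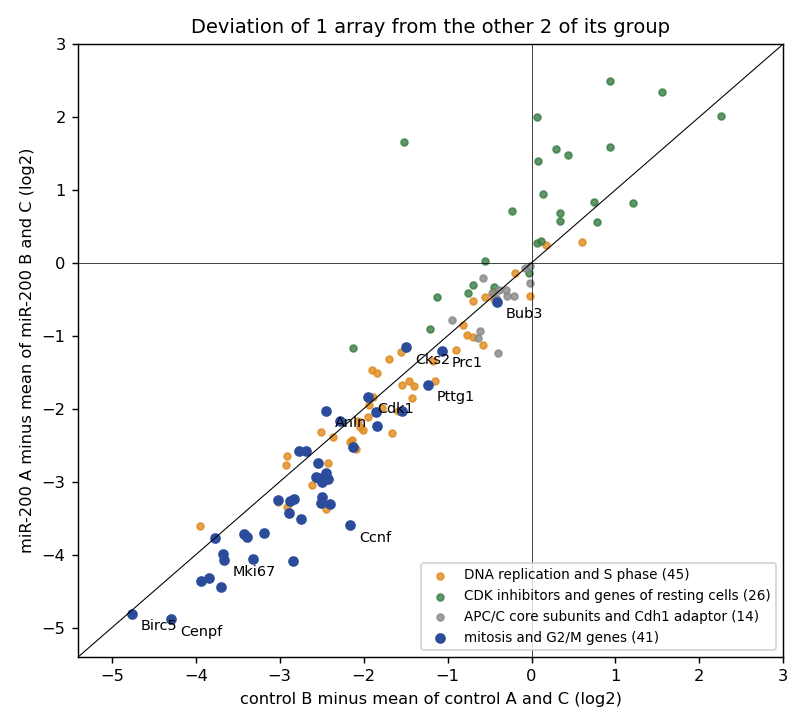
Each point is a gene: the vertical axis gives miR-200 A minus the mean of miR-200 B and C, the horizontal axis control B minus the mean of control A and C, both in log2 units, with the line of equality. The mitotic genes lie in the lower left, from Bub3 (-0.53 and -0.41) to Birc5 (-4.81 and -4.77), while the APC/C core genes lie nearer 0 but below it on both axes.

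On the 4 other arrays the set was tight. The 2 arrays miR-200 B and C differed by a median of 0.10 over the members, against 0.18 over all genes. Control A and C differed by a median of 0.055 over the members, against 0.17 over all genes. The members are brighter on these 4 arrays, with medians of 10.65 to 11.02 against 7.38 to 7.49 over all genes. Genes of like level were not compared. The 2 low arrays, miR-200 A and control B, lay farther apart, by a median of 0.38 over the members, against 0.32 over all genes. Pooled within both groups, the SD of a member had a median of 1.68, from 0.28 (Bub3) to 2.76, against 0.27 over all genes.

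Genes outside the set, taken from lists written with earlier results of these data known, show how far the pattern reached. Of 65 other mitotic genes, 55 were at least 2-fold lower on miR-200 A and 54 on control B, where 6.37% and 6.58% of all genes were. Ska1, a kinetochore gene, had 4.89, 10.07 and 9.92 in miR-200 cells, against 10.02, 5.01 and 10.12 in control cells, while the kinetochore gene Zwint ran the other way with 11.61, 10.75 and 10.81, against 10.68, 11.07 and 10.60. Of 45 genes of DNA replication and S phase, 35 were at least 2-fold lower on miR-200 A and 32 on control B. Their median deviation was -1.84 on miR-200 A and -1.70 on control B, less than the -3.24 and -2.57 of the members.

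The regulators of the late wave divided. Foxm1, the factor that binds with B-Myb in G2, read 6.60, 9.65 and 9.54 on the miR-200 arrays, against 9.69, 6.74 and 9.81 on the control arrays, the same order as the members. Mybl2, which encodes B-Myb, had 6.08, 8.05 and 8.44, against 8.15, 6.59 and 8.12. Over the 23 regulators listed, 6 were at least 2-fold lower on miR-200 A and 8 on control B. Ccnd1, the G1 cyclin D1, was nearly level, with 13.34, 13.51 and 13.56 in miR-200 cells, against 13.34, 13.23 and 13.35 in control cells. Cdkn1a, the Cdk inhibitor p21, ran opposite to the mitotic genes, with 10.96, 8.56 and 8.68 in miR-200 cells, against 9.39, 11.07 and 9.64 in control cells. Cdkn1b, the inhibitor p27, did not share that order and was lowest on miR-200 A and control B, as the mitotic genes were. It read 10.58, 10.96 and 11.13, against 11.09, 9.90 and 10.97. Over 26 Cdk inhibitors and genes of resting cells, 9 were at least 2-fold higher and 1 lower on miR-200 A, and 3 were higher and 4 lower on control B. Of all genes, 7.25% were at least 2-fold higher and 6.37% lower on miR-200 A, and 6.18% higher and 6.58% lower on control B.

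**Figure D4:**
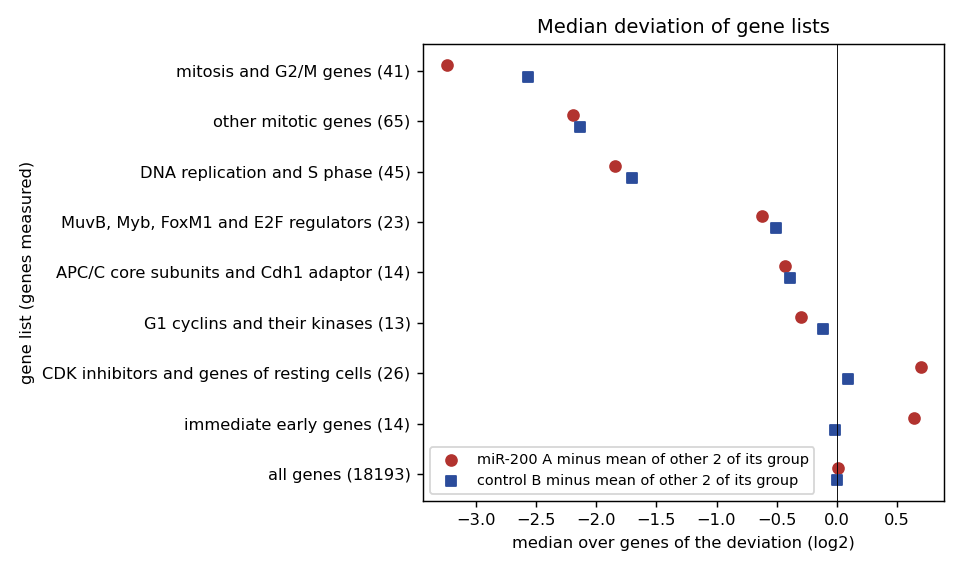
Median deviation of each gene list in log2 units, miR-200 A minus the mean of miR-200 B and C (circles) and control B minus the mean of control A and C (squares). The mitotic members lie farthest left, at -3.24 and -2.57, followed by the other mitotic genes and the S phase genes.

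Other values that could move with the 2 low arrays were read beside them. The difference between the 3′ and 5′ probe sets of actin was 0.21, 0.14 and 0.098 on miR-200 A, B and C, against 0.13, 0.17 and 0.091 on control A, B and C, highest on the 2 low arrays. The same difference for Gapdh was -0.26, -0.30 and -0.29, against -0.31, -0.27 and -0.25, which does not set the 2 arrays apart. Of 21 markers of fibroblasts, endothelium and blood cells, 12, 11 and 12 lay above the gauge on the miR-200 arrays, against 11, 11 and 13 on the control arrays. Their summed linear signal was 2916, 2420 and 2351 in miR-200 cells, against 2023, 2391 and 2297 in control cells. Lyz2 was listed at 0 on miR-200 A and on control A, and Pdgfrb on control C. Of the 21, 1 was at least 2-fold higher and 2 lower on miR-200 A, where 7.25% and 6.37% of all genes were. On control B 1 was higher and 3 lower, where 6.18% and 6.58% of all genes were. Cd68, a lysosomal gene used as a macrophage marker, was higher on the low arrays, with 8.98, 5.73 and 5.97, against 6.81, 8.87 and 6.46. Ptprc, the pan-leukocyte marker CD45, stayed between 5.29 and 5.91 on all 6. Their part in the result was not tested. The labels name no batch.

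The study's comparison, miR-200 cells against control cells, asks whether the microRNA cluster changed the level of these genes. With all 6 arrays none of the 41 passed an adjusted p of 0.05 in limma with Benjamini-Hochberg adjustment over 45037 probe sets, where 0.945% of all genes did (172 of 18193). At an unadjusted p of 0.05, 0 of 41 passed, where 14.8% of all genes did. In 0 of 41 were the groups without overlap, where 23.5% of all genes were. The median difference over the members was 0.012, and that over all genes 0.0014. Single differences ran from -0.31 (Cdc25b) to 0.62 (Prc1).

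Cdk1 averaged 12.10 ± 1.06 in miR-200 cells and 11.62 ± 1.12 in control cells (SD, n = 3 each), a difference of 0.47 ± 0.76 (SE) with an adjusted p of 0.829 in limma. Plk1 averaged 9.73 ± 2.15 in miR-200 cells and 9.19 ± 1.98 in control cells, a difference of 0.54 ± 1.43 (adjusted p = 0.906, limma). The difference of Mki67 was 0.36 ± 1.55 (adjusted p = 0.948, limma), with 10.89 ± 2.35 in miR-200 cells and 10.53 ± 2.12 in control cells. In each of these the difference was smaller than the spread within either group. For Bub3, the steadiest member, the means were 12.43 ± 0.31 in miR-200 cells and 12.12 ± 0.24 in control cells, and the difference of 0.30 ± 0.22 had an adjusted p of 0.605 in limma. Its dimmer probe sets gave larger differences, 0.59, 0.66, 0.70 and 1.06, with adjusted p from 0.275 to 0.502 in limma. In the one at 0.70 the groups did not overlap, and the one at 1.06 lay under the gauge on every array. Ccna2 (-0.15 ± 1.27), Cdc20 (-0.19 ± 1.06), Bub1b (-0.11 ± 1.16) and Cenpa (-0.04 ± 1.08) lay slightly below 0, with adjusted p from 0.961 to 0.996 in limma. Aurkb (0.11 ± 1.26), Top2a (0.16 ± 1.11) and Kif11 (0.38 ± 1.43) lay above 0, with adjusted p from 0.940 to 0.985. Where the SE exceeds 1 log2 unit, a 2-fold change would lie within 1 SE of 0.

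Without miR-200 A and control B, 2 arrays chosen because their values stand apart, the median SE of the members was 0.11. Still 0 of 41 passed the adjusted threshold in limma, where 0.319% of all genes did. The differences were small and mostly above 0: 33 of 41 lay above 0, where 49.8% of all genes did, and the members' median was 0.15. At an unadjusted p of 0.05, 10 of 41 were higher and 0 lower, where 9.56% of all genes were higher and 12.8% lower. All 41 members are lowest on the 2 arrays left out, so these p-values omit most of the members' variation between cultures. They do not account for that choice of arrays, and members measured on the same arrays are not replicates. In 21 of 41 both miR-200 B and C lay above both control A and C, where 28.5% of all genes did. The counts depend on scaling. In place of the 10, 6 of 41 passed with the values as deposited and 2 of 41 with array medians set equal. Of all 18193 genes, 3785 and 3654 passed in these settings, higher or lower. In the same settings 30 of 41 and 22 of 41 lay above 0. The median of all genes was 0 in the first setting and -0.078 in the second, and that of the members was 0.10 and 0.026.

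The 10 were Prc1, Plk1, Kif11, Mki67, Cdk1, Aurka, Kif2c, Bub3, Top2a and Ttk, named because they passed the unadjusted threshold on these 4 arrays. Plk1 had the lowest adjusted p of the set, 0.126 in limma, with a difference of 0.64 ± 0.10 (SE) between miR-200 B and C and control A and C. Prc1 differed by 0.66 ± 0.11 (adjusted p = 0.129, limma). The other 8 differed by 0.32 to 0.50, with adjusted p from 0.154 to 0.223. The pair left out gives values of its own: miR-200 A minus control B was above 0 in 8 of these 10 genes, 0.52 in Prc1, 0.34 in Plk1 and 0.54 in Cdk1, and below 0 in Top2a (-0.18) and Ttk (-0.42). Over all 41 members it was above 0 in 13, where 49.7% of all genes were. Across all genes this difference correlated with that on the 4 arrays (r = 0.42). Its share above 0 among all genes that passed the same unadjusted threshold was not computed. The 8 of 10 therefore has no matching background and is no support for a difference. Among the cyclins, Ccna2 had 0.035, Ccnb2 -0.06 and Ccnf 0.17 on the 4 arrays. The phosphatases Cdc25b and Cdc25c had -0.14 and -0.15, and the APC/C activator Cdc20 had -0.13. Whether these genes differ from the 10 was not tested.

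**Figure D5:**
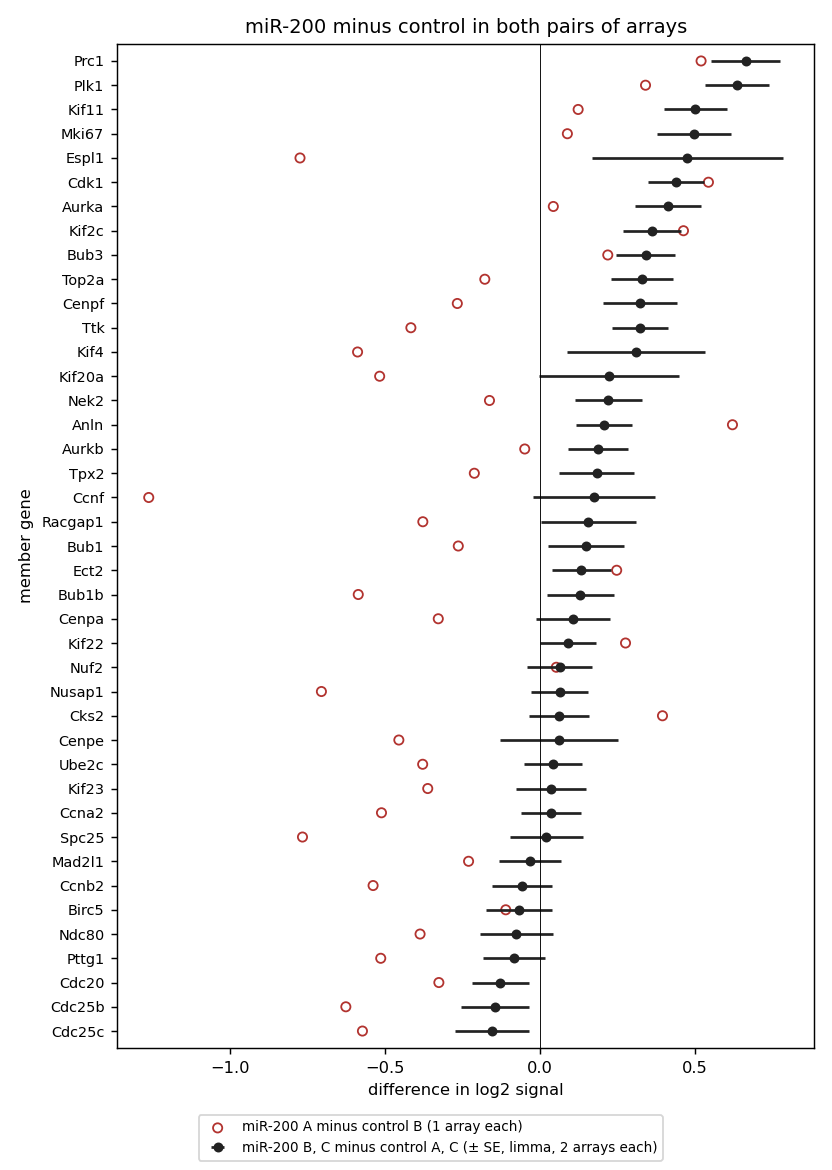
Differences between miR-200 and control arrays in log2 units for the 41 genes, sorted: filled points are miR-200 B and C minus control A and C with the SE of the limma fit on these 4 arrays, open points miR-200 A minus control B, a single pair without an error. The filled points run up to 0.66 (Prc1), and 33 of them lie above 0, while 13 of the open points do.

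Probe sets other than the brightest shared the order of arrays in part. The members have 46 further probe sets in 27 genes, 40 of which lie above the gauge on at least 1 array. Of the 46, 27 were at least 2-fold lower on miR-200 A, 25 on control B and 24 on both. Some above the gauge did not: a second probe set of Bub3 read 8.53, 9.40 and 9.57 in miR-200 cells, against 8.52, 8.62 and 8.58 in control cells, and one of Spc25 read 7.59, 7.57 and 7.62, against 7.13, 7.60 and 7.57. The brightest probe sets of Aurkb, Cdc20, Kif22 and Kif2c are of a kind whose probes can also match other transcripts, so their levels are less certain. Those of Nek2, Bub1b, Bub3 and Pttg1 are of a kind shared between several transcripts. The measured members lie on 16 chromosomes, with no more than 8 on any one.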

How the data were processed

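Total RNA of 6 cultures, 3 per kind of cell, was labelled with biotin and hybridized to Affymetrix mouse arrays, per the labels' protocols. The authors deposited 1 log2 value per probe set and array. Their method of summarising probes into a value, and any scaling, is not stated in the labels. The labels name the 430A 2.0 design, whereas the table holds 45101 probe sets and was used as it stands. Array medians spanned 0.0924 and interquartile ranges 0.174, so quantile normalization was applied (limma 3.58.1, R 4.3.3). After 64 control probe sets were removed, 45037 were tested with lmFit and eBayes, two-sided, miR-200 minus control vector, with Benjamini-Hochberg adjustment over all of them and a threshold of 0.05. Of these, 34945 carry 1 gene symbol in the platform annotation, 932 several and 9160 none; 34741 were matched by gene number to RefSeq (GRCm38.p6). A gene is its brightest probe set among those annotated to it alone, and no member was left out for a low value.

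The deviation of an array is its value minus the mean of the other 2 arrays of its group, computed for every array alike. A fold from a reading under the background gauge of 5.28 uses the gauge and is given as at least. The members, the gene lists and the tests were chosen with earlier results of these data known. Levels are given for members of every role, and differences with adjusted p for Cdk1, Ccna2, Cdc20, Plk1, Aurkb, Bub1b, Bub3, Kif11, Cenpa, Top2a and Mki67, named by rule; the 10 genes of the comparison without miR-200 A and control B were chosen after their values were seen. The fit was tested on simulated data with 200 changed probe sets. Alternatives changed the normalization, the filter on dim probe sets, the rule for several probe sets, the variance model and the arrays used.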

Additional observations from a re-analysis of the deposited data

How the results depend on the processing

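No mitotic gene passed the adjusted threshold in limma under the main setting or any of 16 alternatives, and the lowest adjusted p was 0.126 (Plk1, without miR-200 A and control B). At an unadjusted p of 0.05 in limma no member passed with all 6 arrays and brightest probe sets. With probe sets of a gene averaged 1 passed, and without miR-200 A and control B 10 passed. Without both arrays, settings added after seeing the data gave 6 with values as deposited and 2 with array medians set equal. Of 18193 genes, 2696 passed in the main setting, 2716 with averaged probe sets and 4070 without both arrays. Without both, 3785 passed as deposited and 3654 with array medians set equal. Over all genes the 172 calls became 476 without the dimmest 40% of probe sets, 268 with the mean of probe sets, 494 with a trended robust variance, 606 with array weights and 58 without both arrays, for which values as deposited gave 0 (3785 genes at an unadjusted p of 0.05) and centred values 73. Leaving out 1 array gave 16 (without control A) to 185 calls (without miR-200 A), with 86 without control B, 28 without control C, 25 without miR-200 B and 31 without miR-200 C. With the letter as a replicate block, 0 genes passed in limma and 1720 had an unadjusted p under 0.05. Samples of the same letter deviated with correlations of -0.58, -0.67 and 0.43 for A, B and C. Each deviation is taken from the other arrays of the group, so the low arrays miR-200 A and control B shape these signs. The correlations therefore cannot decide whether the letters pair the samples.

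The sign of the members' difference depended on which 1 array was left out: their median was 1.09, -0.48 and -0.54 without miR-200 A, B and C, and 0.50, -0.86 and 0.41 without control A, B and C, against 0.012 with all arrays, -0.0037 as deposited, -0.075 with array medians set equal (all genes -0.068) and 0.25 with array weights. Control B left out gave the lowest and miR-200 A left out the highest difference of single genes, which ran from -0.17 to 1.09 in Cdk1, -1.11 to 0.997 in Ccna2, -1.04 to 0.72 in Cdc20, -0.60 to 1.78 in Plk1, -0.90 to 1.19 in Aurkb, -0.94 to 0.96 in Bub1b, -0.75 to 1.63 in Kif11, -0.86 to 0.92 in Cenpa, -0.67 to 1.16 in Top2a, -0.86 to 1.72 in Mki67, -0.57 to 1.27 in Aurka, -1.03 to 1.43 in Ttk and -0.50 to 1.26 in Kif2c. Bub3 (0.16 to 0.48) and Prc1 (0.26 to 1.02) kept their sign when any 1 array was left out. Ccna2, Bub1b and Cenpa also changed sign to 0.12, 0.18 and 0.21 with array weights, to 0.035, 0.13 and 0.11 without both arrays, and to 0.020, 0.070 and 0.072 without both as deposited; Ttk became -0.015 with array medians set equal. The cause was not tested. The low arrays kept their place: the members' median deviation lay between -3.24 and -2.56 on miR-200 A and between -2.61 and -2.29 on control B under the alternatives of scaling, filter and probe set choice. Signal over background limits the folds of the dimmest members, of which 5 lay under the gauge on miR-200 A and 3 on control B.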

Other observations

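Of 13 genes of the G1 cyclins and their kinases, Cdk6, a partner of the D cyclins, was the 1 that passed the test between the groups, with 11.70, 11.63 and 11.50 on miR-200 A, B and C, against 12.55, 12.58 and 12.59 on control A, B and C. It fell by 0.97 ± 0.12 on the log2 scale (SE; adjusted p = 0.0451, limma), a call that was lost when any 1 of the 6 arrays was left out, with differences of -1.01 to -0.91 and adjusted p of 0.0657 to 0.191 in limma. The repressors E2f7 and E2f8, themselves expressed from S phase on, had the array order of the mitotic genes: E2f7 read 6.33, 9.73 and 10.07 in miR-200 cells, against 9.35, 5.42 and 9.10 in control cells, and E2f8 read 7.89, 11.08 and 11.01, against 10.66, 6.73 and 10.81. Txnip, a gene raised in resting cells, ran opposite to them with 12.53, 10.44 and 10.61 in miR-200 cells, against 11.26, 13.31 and 10.83 in control cells. The 26 Cdk inhibitors and genes of resting cells did not do so as a list on control B. There 3 were at least 2-fold higher and 4 lower, with a median deviation of 0.095. On miR-200 A 9 were higher and 1 lower.

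Without miR-200 A and control B, 50 of 65 other mitotic genes and 38 of 45 S phase genes had a difference above 0, with medians of 0.14 and 0.18, and 7 of 26 Cdk inhibitors and genes of resting cells did, with a median of -0.40. The median over all genes was 0. These lists share the 4 arrays with the members and give no independent evidence.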
